A study of Gallus gallus with 14 samples.

Results

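The genes described here are the nuclear-coded genes of the mitochondrial respiratory chain and of ATP synthase. They were taken from the deposited table of chicken retina expression by symbol: all genes whose symbol begins with NDUF, UQCR or ATP5, the COX genes numbered 4 to 8, and SDHA, SDHB, SDHC, SDHD and CYC1. The table has 18631 genes and 82 of them match, none under the symbol CYC1, and 75 have a mean of at least 1 CPM (counts per 1000000 reads, the unit of the deposited values) over the 14 libraries. By complex these are 32 subunit genes of complex I, 6 complex I assembly factors of the NDUFAF family, 4 genes of complex II, 8 of complex III, 9 of complex IV and 16 of complex V, the ATP synthase. The rule uses symbols and mean level alone, and it was written with earlier results of these data known.

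The respiratory chain sits in the inner mitochondrial membrane. Complexes I and II pass electrons from NADH and succinate to coenzyme Q, complex III passes them to cytochrome c, and complex IV passes them to oxygen. Complexes I, III and IV pump protons, and complex V uses the returning protons to make ATP. Complexes I, III, IV and V are built from subunits of both the nuclear and the mitochondrial genome, whereas complex II is coded by nuclear genes alone. Photoreceptors pack mitochondria into their inner segments, and the retina has a high oxygen use for its mass.

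Retinas came from wild type White Leghorn chickens, a layer breed, which were 3 days old when lenses were fitted. The lens group has 7 retinas from eyes that wore a lens of -10 dioptres for 1 day, a power that places the focal plane behind the retina, and the control group has 7 retinas labelled control. The lens titles carry the numbers 1 to 4 and 12 to 14, and the control titles 10, 17 to 19 and 21 to 23. Below, the lens libraries are also split into lens 1 to 4 and lens 12 to 14. That split follows the title numbers and was made with earlier results of these data known, which showed the sets to differ. The labels do not say what the numbers stand for, how control eyes were handled, which sex the birds had or whether the retinas came from separate birds, so the spread behind each p-value is that between these samples and may be technical in part.

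The libraries hold total RNA depleted of ribosomal RNA. The step between low CPM values gave read totals of 34.1 to 49.2 M (M is 1000000 reads) in lens libraries and 27.7 to 40.2 M in control libraries, so 1 read was worth 0.0203 to 0.0361 CPM, and this covers counting error only. The genes of the table held 29.9% to 31.9% of these totals, or 8.63 to 15.3 M reads per library. Photoreceptor, interneuron, ganglion cell and glial markers summed to 1603 to 2458 CPM in lens retinas and 1782 to 2186 CPM in control retinas, with 16 of 18 fixed markers in the table. Pigment epithelium markers (8 of 8 in the table, 3 with a mean under 0.2 CPM) summed to 5.40 to 13.9 CPM in lens retinas and 4.39 to 7.94 CPM in control retinas, and the highest sum, with RPE65 at 7.04 CPM, was that of lens 4. Of 7 red blood cell markers 1 was listed, at 0 in every library, and muscle markers other than ACTN2, which the retina also holds, were each at most 0.160 CPM. The part of these markers in the results below was not tested. W-linked genes (26 of them, none a respiratory chain gene) summed to 574 to 625.1 CPM in 7 libraries and to 0.546 to 1.66 CPM in the other 7. The libraries with W-linked reads are lens 1, 2, 3 and 13 and control 19, 21 and 23, so they make up 3 of 4 libraries of lens 1 to 4, 1 of 3 of lens 12 to 14 and 3 of 7 controls.

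Over all 7 lens and 7 control retinas, no respiratory chain gene passed the test after 1 day of lens wear. Each gene was compared by limma on log2(CPM + 1), with Benjamini-Hochberg adjustment over the 11005 genes whose mean reached 1 CPM. A gene was called at an adjusted p under 0.05. Every fold change below is a difference of mean log2(CPM + 1), and the added 1 shrinks it for genes of few CPM. Of the 75 members 0 were called, and of all 11005 genes 0 were called (0%). At an unadjusted p under 0.05 stood 7 members, or 9.33%, beside 1619 genes, or 14.7%, of all tested. The exact rank-sum test also called 0 members and 0 genes, with 5 members and 1147 genes at an unadjusted p under 0.05. In bulk tissue, fewer cells of a type and less RNA per cell cannot be told apart, so a CPM level is a property of the whole retina.

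In this pooled comparison the estimates were narrow for most members. The 95% confidence interval of the lens effect lay within 1.25-fold in either direction for 57 of 75 members (76%), against 7444 of all 11005 genes (67.6%). For lens 1 to 4 over control it did so for 38 of 75 members (50.7%), against 46.3% of all genes. For lens 12 to 14 over control it was also 38 of 75 members (50.7%), against 60.3% of all genes. In the pooled comparison, the median log2 fold change was -0.03 over the members and 0.02 over all genes. Below 0 were 45 of the 75 members (60%), against 43.6% of all genes. By complex the median was -0.03 for complex I, 0.02 for the NDUFAF factors, 0.0021 for complex II, -0.04 for complex III, 0.02 for complex IV and -0.10 for complex V. Apart from ATP5A1W, which lies on the W chromosome, 1 member differed by more than 1.25-fold in its estimate: NDUFA13, a membrane arm subunit of complex I, at a log2 fold change of -0.50 (SE 0.25, limma adjusted p = 0.358).

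The members named here, among the more abundant of their complexes, had similar means in both groups. This does not hold for every member: the interval stayed within 1.25-fold for 25 of 32 genes of complex I and 9 of 16 of complex V. NDUFS1, which carries iron-sulfur clusters in the peripheral arm of complex I, had 35.5 ± 1.015 CPM in lens retinas and 35.2 ± 3.26 CPM in control retinas (SD, n = 7 each, as in the other means of this paragraph). Its span overlaps INO80D on the same strand, so the genes may share reads. NDUFA10, an accessory subunit of the complex I membrane arm, had 48.1 ± 2.55 CPM in lens retinas and 47.0 ± 3.27 CPM in control retinas. For both genes the means differed by less than either SD. SDHA, the flavoprotein that oxidises succinate, had 54.7 ± 2.57 CPM in lens retinas and 56.7 ± 3.32 CPM in control retinas. UQCRC2, a core subunit of complex III, had 32.1 ± 1.94 CPM in lens retinas and 30.9 ± 1.997 CPM in control retinas. COX4I1, the largest nuclear-coded subunit of complex IV, had 27.8 ± 2.73 CPM in lens retinas and 28.3 ± 1.93 CPM in control retinas. The confidence interval of each of these 5 genes stayed within 1.25-fold. COX7B, also of complex IV, had 30.3 ± 0.976 CPM in lens retinas and 28.1 ± 2.73 CPM in control retinas. Of the NDUFAF factors, NDUFAF1 had 12.5 ± 1.19 and 12.9 ± 0.798 CPM in the same order. NDUFAF6 had 9.96 ± 0.759 and 10.1 ± 0.840 CPM. ATP5F1B, the catalytic beta subunit of ATP synthase, had 41.8 ± 3.20 CPM in lens retinas and 45.4 ± 5.26 CPM in control retinas, a log2 fold change of -0.11 with an interval of -0.26 to 0.03 (limma adjusted p = 0.445).

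The 7 members at an unadjusted p under 0.05 went in both directions and each estimate was small. Those with higher estimates in lens retinas were NDUFAF7, a methyltransferase needed to assemble complex I, at a log2 fold change of 0.18 (SE 0.073), ATP5J, which couples the 2 parts of ATP synthase, at 0.14 (SE 0.058), and SDHD, a membrane anchor of complex II, at 0.12 (SE 0.055). The span of NDUFAF7 overlaps that of PRKD3 on the opposite strand over 2702 bases. Those with lower estimates were NDUFA1 and NDUFB6, both in the membrane arm of complex I, at -0.14 (SE 0.057) and -0.17 (SE 0.074), ATP5J2, the f subunit of ATP synthase, at -0.16 (SE 0.067), and ATP5O, the stalk protein OSCP, at -0.13 (SE 0.062). The smallest adjusted p among them was 0.287 by limma, that of NDUFAF7, whose 7 lens values lay between 5.61 and 7.35 CPM and whose 7 control values lay between 4.53 and 6.46 CPM.

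**Figure D1:**
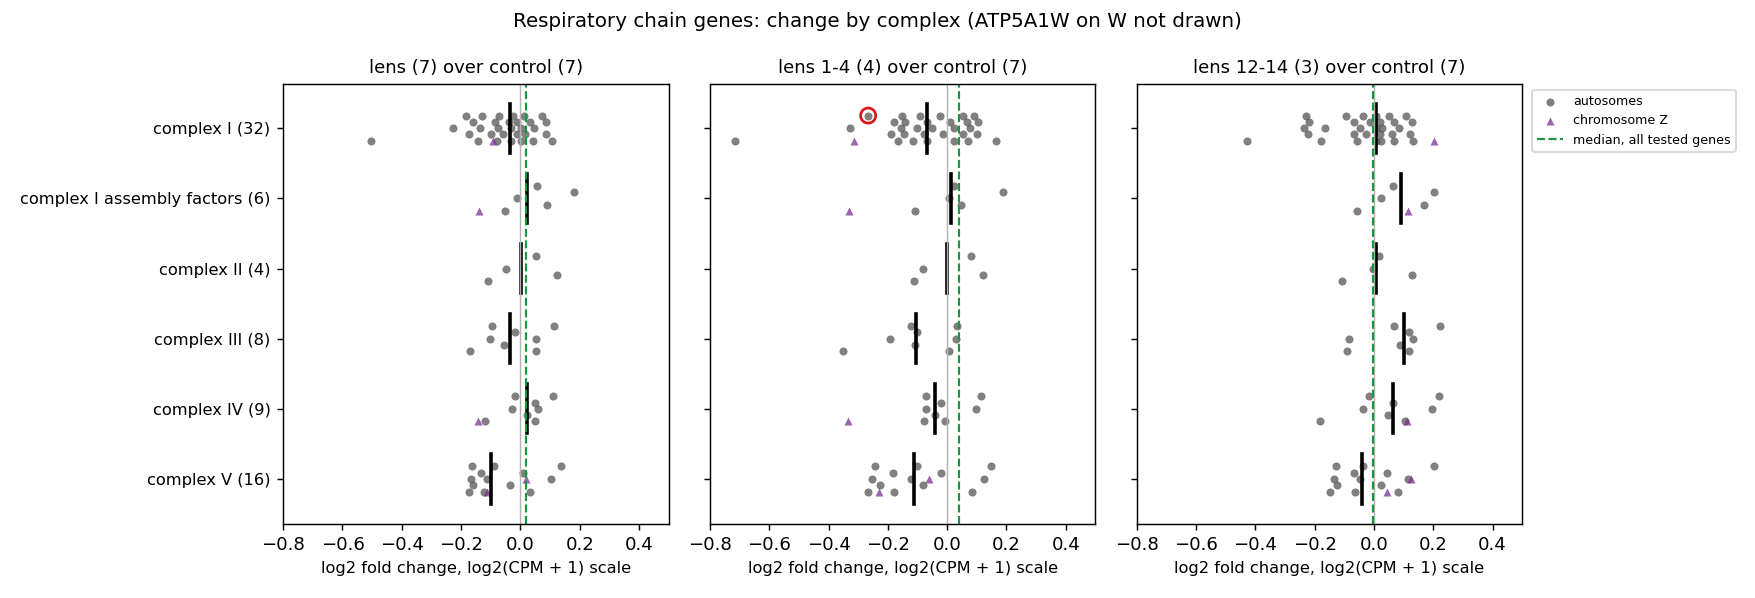
Log2 fold change (x axis, log2(CPM + 1) scale) of the 74 members other than ATP5A1W, in rows by complex with the number of genes, for lens over control (7 against 7), lens 1 to 4 over control (4 against 7) and lens 12 to 14 over control (3 against 7). Black bars are the medians of each complex (ATP5A1W included for complex V), the dashed line is the median of all tested genes, triangles are genes on chromosome Z, and the ringed point, NDUFB6 at -0.27, is the only member called by limma in these 3 panels.

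Between lens 1 to 4 and control, 1 member was called, NDUFB6, and it fell. NDUFB6 is an accessory subunit of the complex I membrane arm, on chromosome 14 at 13797513 to 13799636 on the plus strand (GRCg6a). It had 4.06, 3.54, 3.37 and 3.36 CPM in lens 1 to 4 and 4.47, 4.01 and 4.52 CPM in lens 12, 13 and 14. The control retinas had 4.26 CPM at the lowest, a median of 4.40 CPM and 5.17 CPM at the highest. All 4 values of lens 1 to 4 lay below all 7 control values, while lens 12 and 14 lay inside the control range and lens 13 below it. The log2 fold change was -0.27 (SE 0.079, limma adjusted p = 0.0395) for lens 1 to 4 over control and -0.05 (SE 0.082, limma adjusted p = 0.993) for lens 12 to 14 over control. The difference between the lens sets themselves, -0.22 (SE 0.10), was not called (limma adjusted p = 0.213).

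That single call is set against a comparison in which many genes moved. Of all 11005 genes 1480 were called (13.4%), 446 of them lower (4.05%), beside 1 of 75 members. That background is itself unsteady: without lens 1, 2 or 3 it was 869, 911 and 724 genes (7.90%, 8.28% and 6.58%). At an unadjusted p under 0.05 stood 10 members, or 13.3%, beside 3328 genes, or 30.2%, of all tested. The split of all calls, 1034 higher and 446 lower, depends on the scaling: with median-of-ratios scaling 748 of 1487 calls were higher, and with quantile scaling 773 of 1523. The members called numbered 4 and 5 under those scalings, all lower. NDUFB6 itself was lost under several alternatives: its limma adjusted p was 0.0508 to 0.111 when lens 2, 3 or 4 or control 17, 18, 19, 21 or 22 was left out, and 0.0409 to 0.0491 when lens 1 or control 10 or 23 was left out. The exact rank-sum test called 0 members and 0 genes, with 9 members and 2770 genes at an unadjusted p under 0.05, and the smallest p it can give with 4 against 7 libraries is 0.00606.

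The medians of most complexes lay slightly below 0 in lens 1 to 4 over control. The median log2 fold change was -0.07 over the 75 members and 0.04 over all genes. Below 0 were 48 of 75 members (64%), against 41.6% of all genes. No filter, the exact rank-sum test and the joint fit leave the member median unchanged by construction. Under the other settings listed in the closing section that do not leave out a library, it was -0.07 to -0.11. By complex the median was -0.07 for complex I, 0.01 for the NDUFAF factors, -0.0011 for complex II, -0.11 for complex III, -0.04 for complex IV and -0.11 for complex V. The smallest adjusted p within each complex other than I was 0.103 for the NDUFAF factors, 0.243 for complex II, 0.130 for complex III, 0.292 for complex IV and 0.0613 for complex V (limma).

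Several further complex I and complex V subunits had lower estimates in lens 1 to 4 without passing the test. ATP5J2 had 9.62, 10.9, 9.87 and 10.1 CPM in lens 1 to 4, 11.1, 11.98 and 11.2 CPM in lens 12 to 14, and 10.3 to 13.1 CPM (median 12.4) in control retinas. Its log2 fold change for lens 1 to 4 over control was -0.23 (SE 0.076, limma adjusted p = 0.0613). NDUFA1 had 10.4, 10.8, 10.2 and 9.79 CPM in lens 1 to 4, 11.1, 11.1 and 11.7 CPM in lens 12 to 14, and 10.52 to 12.6 CPM (median 12.03) in control retinas. The groups overlap for both genes by 1 or more libraries, and NDUFA1 stood at -0.19 (SE 0.067, limma adjusted p = 0.0745). ATP5L, the g subunit of ATP synthase, had 4.85, 5.15, 5.83 and 5.44 CPM in lens 1 to 4, 7.07, 7.55 and 6.68 CPM in lens 12 to 14, and 5.14 to 7.47 CPM (median 6.72) in control retinas. Here the lens sets did not overlap each other, and both overlapped the controls. The other members at an unadjusted p under 0.05 were NDUFAF2, NDUFA13, NDUFA12, ATP5H, ATP5E and UQCR10, with estimates between -0.71 and -0.155, and all 10 were below 0. NDUFAF2 lies on Z, and its estimate was smaller with the presence of W-linked reads as a covariate (below). The direction of all genes at that p was not counted, and the split of all calls depends on the scaling (above).

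**Figure D2:**
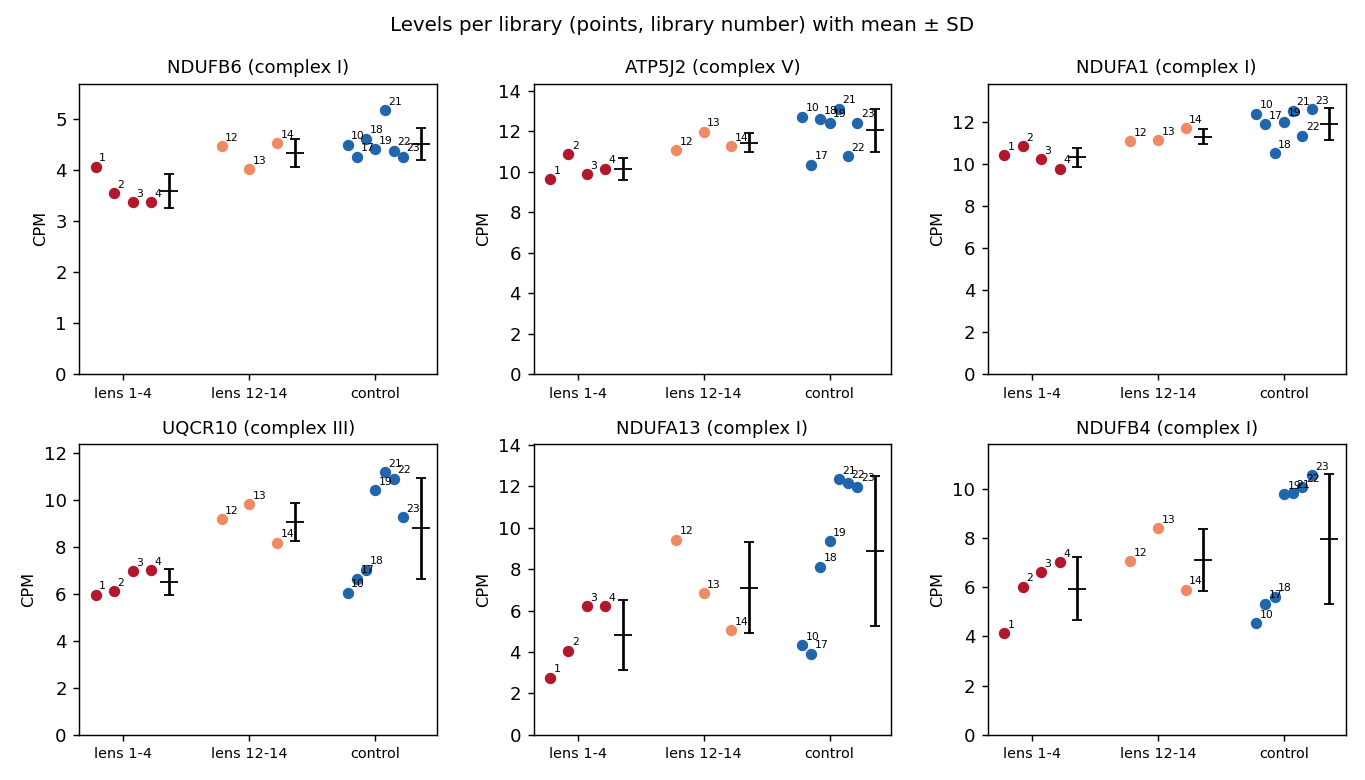
CPM (y axis, from 0) of 6 members in each library, with library numbers beside the points, in lens 1 to 4, lens 12 to 14 and control, and mean ± SD as bars. NDUFB6 lies at 3.36 to 4.06 CPM in lens 1 to 4 and above 4.2 CPM in the controls, and NDUFB4, UQCR10 and NDUFA13 are spread widely within the control group.

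Part of the subunits varied as much among the controls as between the groups. NDUFB4, an accessory subunit of complex I, had 4.14, 6.02, 6.62 and 7.02 CPM in lens 1 to 4, 7.07, 8.41 and 5.90 CPM in lens 12 to 14, and 4.54, 5.33, 5.62, 9.79, 9.82, 10.1 and 10.6 CPM in control 10, 17, 18, 19, 21, 22 and 23. Lens 1 lay below every control, and the other 6 lens libraries lay above control 10, 17 and 18 and below the other 4 controls. NDUFA13 had 2.77, 4.07, 6.21 and 6.22 CPM in lens 1 to 4, 9.42, 6.83 and 5.05 CPM in lens 12 to 14, and 4.34, 3.91, 8.13, 9.34, 12.3, 12.2 and 11.98 CPM in the controls in the same order. UQCR10, a small subunit of complex III, had 6.05, 6.64 and 7.03 CPM in control 10, 17 and 18 and 10.4, 11.2, 10.9 and 9.27 CPM in control 19, 21, 22 and 23. These 3 genes were singled out after their values were seen, and no test was made on that split of the controls. The split goes with a measure of the whole library. Median-of-ratios scaling multiplied control 10, 17 and 18 by 1.03 to 1.05 and control 19, 21, 22 and 23 by 0.972 to 0.993. W-linked reads were absent from control 10, 17, 18 and 22 and present in control 19, 21 and 23. The part of either was not tested. Over the 69 members off the Z and W chromosomes the SD of the controls was 3.38% to 40.7% of the mean, with a median of 11.4%.

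Between lens 12 to 14 and control, 0 of 75 members and 0 of 11005 genes were called (0%) by limma. At an unadjusted p under 0.05 stood 4 members beside 571 genes, or 5.19%, of all tested, and the exact rank-sum test called 0 members and 0 genes, with 3 members and 405 genes at an unadjusted p under 0.05. With 3 against 7 libraries the smallest p that test can give is 0.0167, too large to pass the adjustment at that number of genes. The 4 members were UQCRH, the hinge subunit of complex III, at a log2 fold change of 0.22 (SE 0.071), ATP5J at 0.20 (SE 0.067), NDUFA4, a subunit of complex IV, at 0.22 (SE 0.093), and NDUFS6, a zinc-binding complex I subunit, at -0.43 (SE 0.18). Their smallest adjusted p was 0.922 by limma. The median was 0.02 over the members and -0.0049 over all genes. Below 0 were 32 of 75 members (42.7%), against 52.0% of all genes. With library weights the member median was -0.01. Both lens sets were compared with the same 7 controls, so their values against control are given side by side and not correlated.

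The direct comparison of the lens sets shares no control. In lens 1 to 4 over lens 12 to 14, 1 of 75 members was called and it was lower, beside 551 of 11005 genes (5.01%), 162 of them lower (1.47%). That count was 95, 268, 103, 170, 165 and 9 genes without lens 1, 2, 3, 12, 13 and 14. The member was UQCR10, on chromosome 15 at 11319653 to 11321079 on the minus strand (GRCg6a). UQCR10 had 5.97, 6.11, 6.97 and 7.02 CPM in lens 1 to 4 and 9.18, 9.83 and 8.18 CPM in lens 12 to 14, and the sets do not overlap. The log2 fold change was -0.42 (SE 0.10, limma adjusted p = 0.0443). The 7 controls, at 6.05 to 11.2 CPM, span both lens sets, and neither set differed from them past the threshold, at -0.35 (SE 0.15, limma adjusted p = 0.130) for lens 1 to 4 and 0.07 (SE 0.17, limma adjusted p = 0.995) for lens 12 to 14. Leaving out lens 1, 2, 3, 12, 13 or 14 ended the call (limma adjusted p = 0.0788 to 0.128), and leaving out lens 4 kept it (limma adjusted p = 0.0342).

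At an unadjusted p under 0.05 stood 12 members, or 16%, beside 2723 genes, or 24.7%, of all tested. All 8 genes of complex III had lower estimates in lens 1 to 4 than in lens 12 to 14, as had 66.7% of the members and 41.6% of all genes. The median log2 fold change was -0.15 in complex III, against -0.08 over the 75 members and 0.04 over all genes. The largest after UQCR10 were UQCR11 at -0.32 (SE 0.13) and UQCRFS1, the Rieske iron-sulfur protein, at -0.24 (SE 0.096), with limma adjusted p = 0.161 and 0.162. In complex IV the estimates of NDUFA4, COX7C and COX7A2 were -0.30, -0.45 and -0.24, where the Z-linked COX7C stood at -0.22 with the presence of W-linked reads (described below) as a covariate, and in complex V that of ATP5L was -0.36 (SE 0.095, limma adjusted p = 0.0589). In complex I, NDUFS6 had 6.73, 8.04, 6.01 and 4.40 CPM in lens 1 to 4 and 4.79, 3.94 and 3.59 CPM in lens 12 to 14, with a log2 fold change of 0.50 (SE 0.17, limma adjusted p = 0.110). NDUFS6 was thus the 1 member of the 12 with a higher estimate in lens 1 to 4. Its estimate was also higher with W-linked reads (below), which 3 of 4 libraries of lens 1 to 4 and 1 of 3 of lens 12 to 14 held. Over the 17 alternatives run, among them the covariate for W-linked reads, the difference between the lens sets was 0.39 to 0.63. Both lens sets had the same lens power and the same wear time, and the labels name nothing but the numbers that separates them. The libraries themselves differ more widely. Noncoding genes held 6.21% to 6.64% of the reads on listed genes in lens 1 to 4 and 6.88% to 7.16% in lens 12 to 14. Controls, at 6.46% to 8.30%, overlapped both sets, and the part of this share was not tested.

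**Figure D3:**
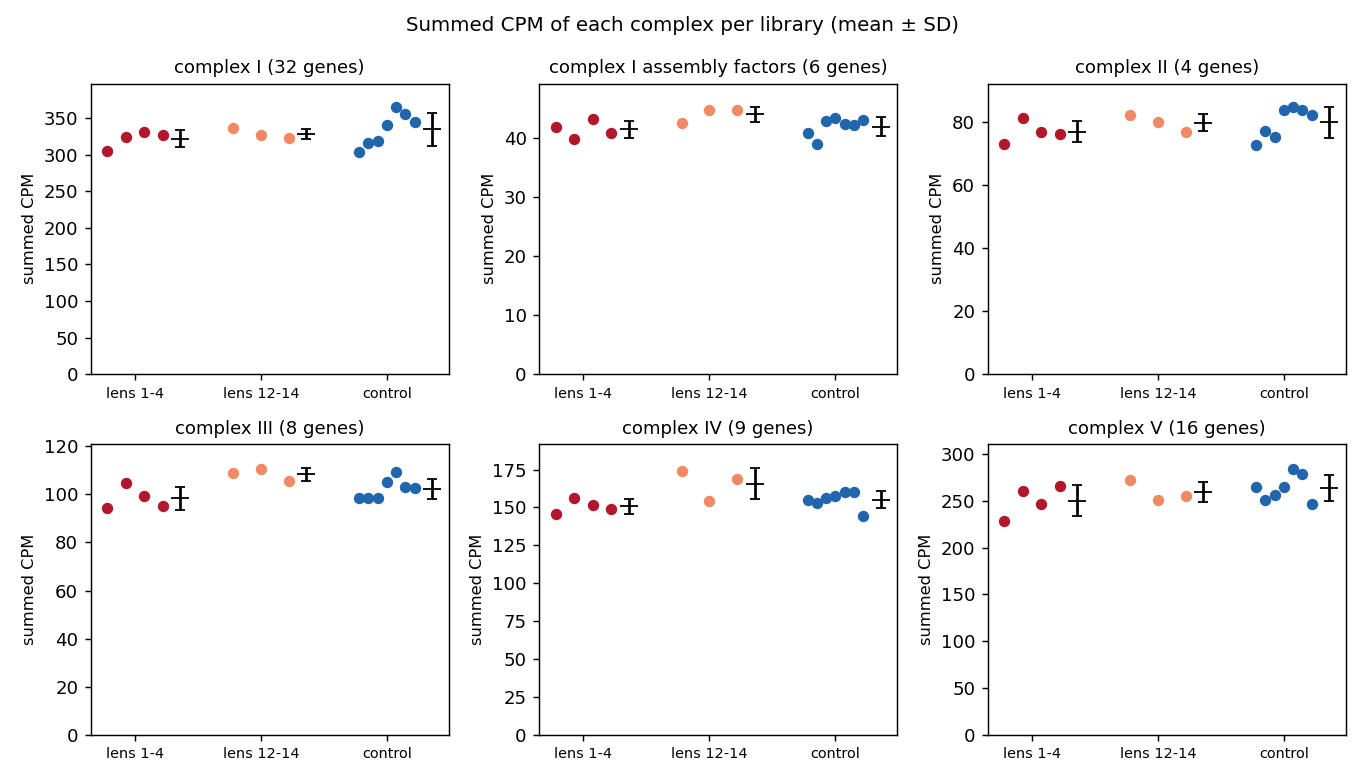
Summed CPM of the genes of each complex (y axis, from 0) in each library, in lens 1 to 4, lens 12 to 14 and control, with mean ± SD as bars. The sums of every complex overlap between lens and control libraries, as for complex I at 305 to 336 CPM in lens libraries and 304 to 365 CPM in control libraries.

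Summed over its genes, each complex overlapped between lens and control libraries. The sums are not divided by gene length, give most weight to the genes with the most reads, and were not tested. Those of complexes I, IV and V and of the NDUFAF factors include members on Z or W, which differ with W-linked reads (described below). The mean sums of complexes I, IV and V were 334, 153 and 254 CPM with W-linked reads and 326, 159 and 263 CPM without. That of the NDUFAF factors was 42.6 and 41.8 CPM in the same order. The part of W-linked reads in the sums of the lens sets was not tested. Complex I summed to 322 ± 11.5 CPM in lens 1 to 4 (n = 4), 329 ± 6.97 CPM in lens 12 to 14 (n = 3) and 335 ± 22.4 CPM in control retinas (n = 7, SD in each case, and the same n below). Complex II summed to 76.9 ± 3.29, 79.8 ± 2.67 and 79.9 ± 4.85 CPM in the same order. Complex III summed to 98.3 ± 4.83 CPM in lens 1 to 4, 108 ± 2.61 CPM in lens 12 to 14 and 102 ± 4.13 CPM in control retinas. The highest value of lens 1 to 4 in complex III, 104.7 CPM, was below the lowest of lens 12 to 14, 105.4 CPM, and the controls ran from 98.5 to 109.4 CPM. Complex IV summed to 151 ± 4.69 CPM in lens 1 to 4, 166 ± 10.3 CPM in lens 12 to 14 and 155 ± 5.47 CPM in control retinas. In complex IV lens 12 and 14, at 173.8 and 168.8 CPM, lay above the highest control, at 160.4 CPM, and lens 13, at 154.0 CPM, did not. Complex V summed to 250 ± 16.6 CPM in lens 1 to 4, 259 ± 11.1 CPM in lens 12 to 14 and 264 ± 13.99 CPM in control retinas. The 75 members together took up 888 to 1016 CPM in lens libraries and 934.5 to 1046 CPM in control libraries.

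Genes that exist in several forms showed no called difference by lens. ATP5G1, ATP5G2 and ATP5G3 all code for the same mature c subunit, which forms the rotor ring of ATP synthase. ATP5G1 had 3.98 ± 0.434 CPM in lens 1 to 4, 4.67 ± 0.130 CPM in lens 12 to 14 and 5.01 ± 1.19 CPM in control retinas, and ATP5G3 had 5.51 ± 0.760, 4.41 ± 0.930 and 4.90 ± 0.845 CPM in the same order. Their log2 fold changes for lens 1 to 4 over control were -0.25 (SE 0.13) and 0.15 (SE 0.12), and that of ATP5G2, whose span overlaps ATF7 on the same strand, was -0.18 (SE 0.13). COX7A2, a subunit of complex IV, and COX7A2L, needed to join complexes III and IV into supercomplexes, stood at -0.04 (SE 0.12) and -0.07 (SE 0.063). COX4I1 and COX6A1 stood at -0.02 (SE 0.076) and -0.07 (SE 0.097). No source used here tells how reads of similar copies were assigned. The symbols COX4I2, COX6A2 and NDUFA4L2 fit the rule but were not among the 82 that matched in the table.

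The members called for the presence of W-linked reads were those on the sex chromosomes. Hen cells carry a Z and a W chromosome and cock cells carry a pair of Z, and birds lack a chromosome-wide balance of Z expression as complete as that of the mammalian X. Among the members, ATP5A1Z, NDUFS4, COX7C, ATP5I and NDUFAF2 lie on Z and ATP5A1W on W. In a limma fit of all 14 libraries with lens wear and the presence of W-linked reads as terms, 6 of 75 members were called for W-linked reads, namely these 6, and 0 of the other 69 (6 of the 69 at an unadjusted p under 0.05). Of all 11005 genes 516 were called (4.69%). Of the 10417 tested genes on autosomes 111 were called. At an unadjusted p under 0.05 stood 10.8% of those on autosomes and 8.70% of the 69. The closest of the 69 was NDUFS6, at a log2 difference of 0.45 (limma adjusted p = 0.0553). It passed the threshold in 3 of 19 alternatives, and NDUFAF4 passed it in 2 of 19. The libraries were divided by the W-linked reads themselves, not by a label of sex, so the call of ATP5A1W was fixed by that division and is no result.

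The 5 Z-linked members were lower where W-linked reads were present. ATP5A1Z, which codes for the alpha subunit of ATP synthase, had 29.8, 34.6, 32.9, 28.9, 27.9, 31.9 and 25.8 CPM in lens 1, 2, 3 and 13 and control 19, 21 and 23, all with W-linked reads. It had 64.4, 55.4, 52.9, 53.1, 51.5, 48.4 and 55.5 CPM in lens 4, 12 and 14 and control 10, 17, 18 and 22, which lack them. Every library with W-linked reads lay below every one without them. The log2 difference was -0.85 (SE 0.061, limma adjusted p = 2.37e-08). NDUFS4, a peripheral arm subunit of complex I, had 7.65 to 10.1 CPM (median 8.73) with W-linked reads and 14.8 to 17.3 CPM (median 16.4) without, a log2 difference of -0.83 (SE 0.065, limma adjusted p = 6.63e-08). ATP5I, the e subunit of ATP synthase, had 10.8 ± 1.15 CPM with W-linked reads and 19.5 ± 2.27 CPM without, and COX7C, a small subunit of complex IV, had 8.37 ± 0.645 and 15.1 ± 1.67 CPM in the same order (SD, n = 7 each). Their log2 differences were -0.80 (SE 0.081) and -0.77 (SE 0.074). NDUFAF2, a complex I assembly factor, differed less and its sets overlapped, at 1.70 to 2.74 CPM with W-linked reads and 2.58 to 4.03 CPM without (-0.45, SE 0.096, limma adjusted p = 0.00622). Over all 552 tested genes on Z the median difference was -0.40, and 364 of them (65.9%) were called lower, so that being lower is what most Z-linked genes did.

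ATP5A1W is the W-linked counterpart of ATP5A1Z, on chromosome W at 1391533 to 1453514 on the plus strand, against chromosome Z at 2151344 to 2159327 on the plus strand for ATP5A1Z (GRCg6a). It had 16.1 to 19.7 CPM (median 17.9) in the 7 libraries with W-linked reads and 0.0001 to 0.0802 CPM in the 7 without, where 0.0001 is the constant that stands in every cell of the table. These levels follow from the division and are given as a description, with no fold change or test. Added up, ATP5A1Z and ATP5A1W had 48.2 ± 2.91 CPM with W-linked reads, at 44.9 to 53.5 CPM, and 54.5 ± 5.01 CPM without, at 48.4 to 64.4 CPM. The sums of the libraries overlap, and no test was made on the sum. The 2 copies are similar in sequence and may share reads.

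**Figure D4:**
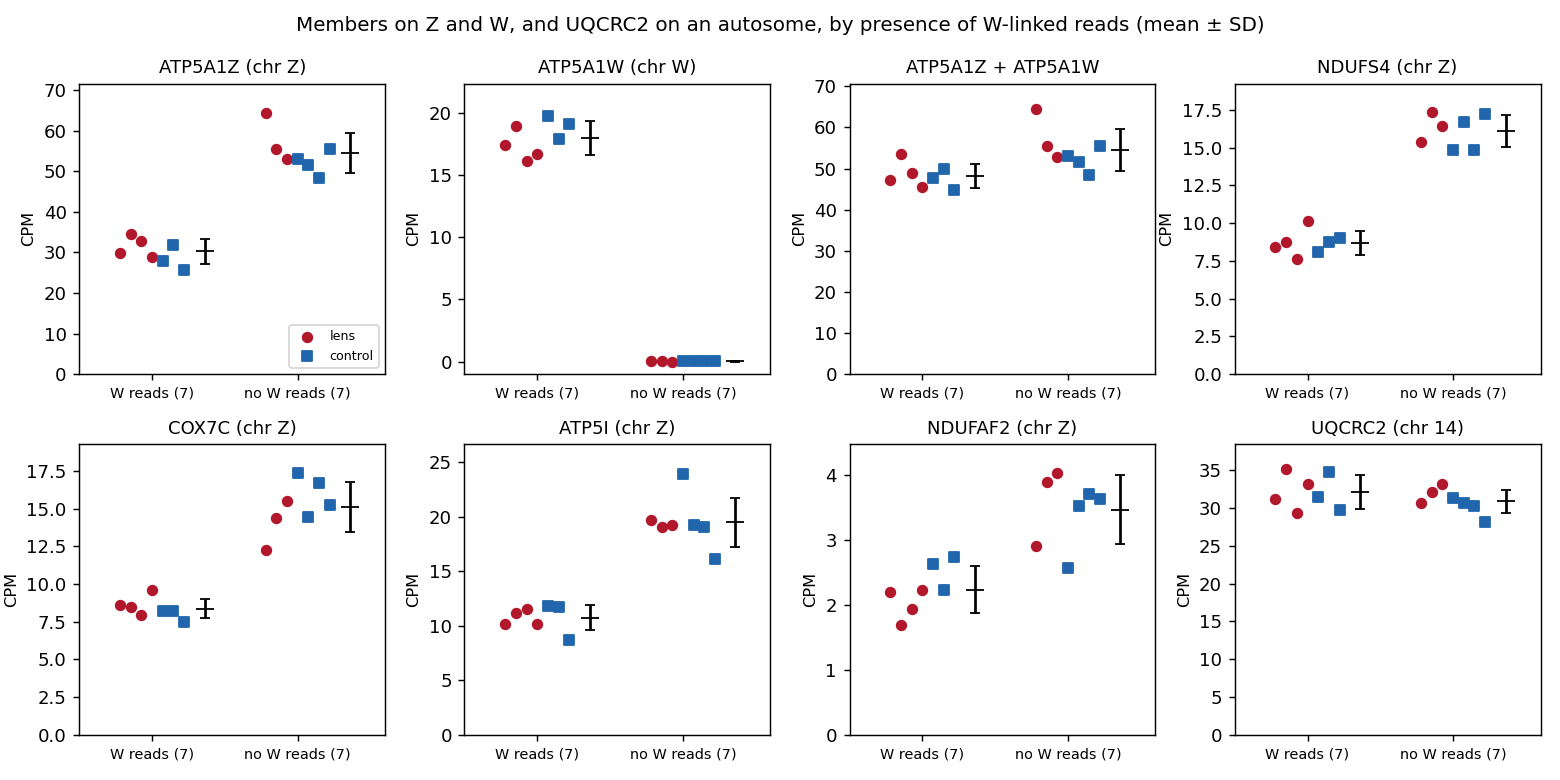
CPM in each library for the 6 members on Z and W, for the sum of ATP5A1Z and ATP5A1W, and for the autosomal UQCRC2, in libraries with W-linked reads (left) and without (right), with mean ± SD as bars. Circles are lens and squares control libraries. ATP5A1Z, NDUFS4, COX7C and ATP5I are lower in all 7 libraries with W-linked reads, and UQCRC2 is at 32.1 ± 2.30 CPM with and 30.9 ± 1.56 CPM without them.

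Lens estimates of the Z-linked members depended on this term. NDUFS4 stood at -0.31 in lens 1 to 4 over control, and at -0.05 with the presence of W-linked reads as a covariate. COX7C stood at -0.33, and at -0.08 with the covariate. ATP5I stood at -0.23, and at 0.03 with it. NDUFAF2 stood at -0.33, and at -0.22 with it, and its estimate was between -0.45 and -0.22 under the 21 alternatives run, with 2 of them past the threshold (library weights, and lens 4 left out). ATP5A1Z stood at -0.06 and was not called, and with the covariate it was called in the other direction, at 0.22 (limma adjusted p = 0.0457). Lens 4, the 1 library of lens 1 to 4 without W-linked reads, stood at 64.4 CPM against 48.4 to 55.5 CPM in control 10, 17, 18 and 22, while lens 1, 2 and 3 stood at 29.8 to 34.6 CPM against 25.8 to 31.9 CPM in control 19, 21 and 23. NDUFB6 was called with the covariate as well, at -0.285 (limma adjusted p = 0.0393).

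Genes around the respiratory chain were called in both directions in lens 1 to 4 over control, at about the share of all genes. Over 8 lists of such genes 12 of 116 tested genes were called (10.3%), beside 13.4% of all genes, 7 of them higher and 5 lower. The split depends on the scaling, with 3 higher and 6 lower under median-of-ratios scaling and 3 higher and 8 lower under quantile scaling. Without lens 2, lens 3 or control 19 the calls numbered 4, 2 and 7. Of 8 tested complex I assembly factors outside the NDUFAF family, 1 fell: ACAD9, an acyl-CoA dehydrogenase that also serves complex I assembly, with 14.7 ± 1.14 CPM in lens 1 to 4 (n = 4), 18.3 ± 0.512 CPM in lens 12 to 14 (n = 3) and 18.7 ± 1.54 CPM in control retinas (n = 7), a log2 fold change of -0.32 (SE 0.075, limma adjusted p = 0.0145). ECSIT, of the same list, stood at -0.46 (limma adjusted p = 0.0831). Of 8 tested assembly factors of complexes II, III and V, 1 rose: TTC19, which acts on complex III, at 15.4 ± 1.33 CPM in lens 1 to 4, 10.03 ± 1.61 CPM in lens 12 to 14 and 11.5 ± 1.90 CPM in control retinas (0.40, SE 0.11, limma adjusted p = 0.0273), while UQCC1 stood at -0.11. Of 19 tested complex IV assembly genes, 2 fell. COX17, a copper chaperone for complex IV, had 6.12 ± 1.495 CPM in lens 1 to 4, 12.1 ± 2.62 CPM in lens 12 to 14 and 11.7 ± 3.82 CPM in control retinas, a log2 fold change of -0.79 (SE 0.23, limma adjusted p = 0.0347). CMC2 fell by 0.49 on the log2 scale (SE 0.12, limma adjusted p = 0.0181).

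The lists for the outer membrane, fuel entry and import held 8 of those 12 calls, from 15, 19 and 19 of the 116 tested genes. Of all genes 13.4% were called in the same comparison. Of 15 tested genes for cytochrome c, carriers and porins 2 rose, both voltage-dependent porins of the outer membrane: VDAC1 had 127 ± 3.95 CPM in lens 1 to 4, 109 ± 3.52 CPM in lens 12 to 14 and 114 ± 3.85 CPM in control retinas (0.16, SE 0.043, limma adjusted p = 0.0257), and VDAC2 stood at 0.18 (SE 0.050, limma adjusted p = 0.0311). Of 19 tested genes of the tricarboxylic acid cycle and pyruvate entry 3 rose and 1 fell. PDHA1, the catalytic alpha subunit of pyruvate dehydrogenase, rose by 0.40 (SE 0.12), MPC1, of the mitochondrial pyruvate carrier, by 0.26 (SE 0.079), and SUCLG1, the alpha subunit of succinyl-CoA ligase, by 0.24 (SE 0.060). SUCLG2, the beta subunit of the GTP-forming succinyl-CoA ligase, fell by 0.25 on the log2 scale (SE 0.071). Their limma adjusted p lay between 0.0200 and 0.0447. Of 19 tested genes of mitochondrial import, TOMM20, a receptor of the outer membrane, rose (0.31, SE 0.066, limma adjusted p = 0.00954) and HSPD1, the matrix chaperonin, fell (-0.48, SE 0.12, limma adjusted p = 0.0185).

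The lists for control of mitochondrial number and for coenzyme Q had no call in that comparison. Of all genes 13.4% were called in it and 30.2% were at an unadjusted p under 0.05. With 18 and 10 genes tested, 0 calls says little of either list. Of 18 tested regulators of mitochondrial biogenesis 0 were called in lens 1 to 4 over control and 3 were at an unadjusted p under 0.05, with PPARGC1B, a coactivator, at 0.38 (limma adjusted p = 0.0766) and TFB2M, a mitochondrial transcription factor, at -0.25 (limma adjusted p = 0.113). Of 10 tested coenzyme Q genes 0 were called and 2 were at an unadjusted p under 0.05, with COQ7 at 0.37 (limma adjusted p = 0.0703) and COQ5 at -0.22 (limma adjusted p = 0.116). In all 8 of these lists limma called 0 genes both for lens over control and for lens 12 to 14 over control. For lens 1 to 4 over lens 12 to 14 it called 6 of the 116 genes (5.17%), beside 5.01% of all genes: TTC19 (0.57), SLC25A4, an ADP and ATP carrier (0.63), VDAC1 (0.21) and COQ7 (0.35) as higher and COX17 (-0.88) and HSPD1 (-0.46) as lower. Without lens 1, 3, 13 or 14 limma called 0 of these 116 genes, and without lens 2 or 12 it called 1. With W-linked reads, LYRM7, which matures the Rieske protein, and TOMM5, of the import pore, were lower (-0.58 and -0.74), and both lie on Z. The median log2 fold change for lens 1 to 4 over control was between -0.09 and 0.03 in the 8 lists, against 0.04 over all genes.

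Of the 7 genes under 1 CPM, which were not tested, ATP5S averaged 0.597 CPM, ATP5SL 0.574 CPM, COX8A 0.0878 CPM, NDUFA11 0.342 CPM, NDUFAF3 0.403 CPM, NDUFAF8 0.190 CPM and NDUFB7 0.744 CPM over the 14 libraries. Just inside the minimum stood COX5A at 1.10 CPM and NDUFA2 at 1.35 CPM. COX5A had 1.13 ± 0.231 CPM in lens retinas and 1.06 ± 0.226 CPM in control retinas, and NDUFA2 had 1.42 ± 0.246 and 1.28 ± 0.184 CPM in the same order (SD, n = 7 each). COX5A overlaps FAM219B on the same strand and NDUFA11 overlaps KLHL33 on the same strand. At 0.0203 to 0.0361 CPM per read, the genes under the minimum rest on few reads, and no difference between groups was read from them.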

How the data were processed

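The authors deposited 1 table that its name calls normalized counts. The deposited values were taken as CPM, normalized by the authors, from their steps, which are the same for every gene of a library, with a constant of 0.0001 in every cell and no division by gene length. STAR, Partek and GRCg6a are named per the submitters' processing notes, without role or version. Of low values, 93.9% to 95.1% per library were whole multiples of 1 step (tolerance 0.05 steps), so they were not treated as read counts. No column belonged to other samples.

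The 11005 of 18631 genes whose mean reached 1 CPM were fitted on log2(CPM + 1) with limma 3.58.1 in R 4.3.3 (mean-variance trend, two-sided, Benjamini-Hochberg over all genes, adjusted p under 0.05). The fit was also run on simulated data with independent noise in each gene. Those data hold no shift shared by the genes of a library, so they do not test the calls made here. Fits for lens 1 to 4 and lens 12 to 14 used the libraries compared alone. The members, the lists and the split of the lens libraries were chosen with earlier results of these data known. Calls in the split comparisons are therefore not tests of a grouping fixed before the data were seen. Named genes were drawn from members past the threshold, the 2 of smallest p and of highest mean per complex, paralogs, and members on Z or W. They were also drawn from members near the minimum, and from the 2 of smallest p and all called genes per pathway list. Not every gene of these kinds is named. Others, such as NDUFA13, NDUFB4, NDUFA12, ATP5E and ATP5H, were named after their values were seen. Alternatives were a pseudocount of 0.1, no filter, other scalings, library weights, a rank-sum test, covariates, a joint fit and each library left out.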

Additional observations from a re-analysis of the deposited data

Results flagged for a closer look

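ATP5F1B stood at 56.2 CPM in control 21, and the other 6 controls lay between 39.6 and 46.3 CPM. NDUFB6 stood at 5.17 CPM in the same library, and the other 6 controls lay between 4.26 and 4.61 CPM. In both cases the gap to the nearest control, as a share of the group's range, was past Dixon's 95% critical value. Of 92 groups examined 2 were past it, where chance gives about 1 in 20. Without control 21 the log2 fold change of NDUFB6 in lens 1 to 4 over control was -0.24 (limma adjusted p = 0.0638).

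UQCR10 differed between the lens sets by the test of the difference itself, at a log2 fold change of -0.42 for lens 1 to 4 over lens 12 to 14 (limma adjusted p = 0.0443). The sets were split with earlier results known that they differ, so this is not a test of a preset grouping. The part of anything that goes with the library numbers was not tested.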

How the results depend on the processing

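For lens over control and for lens 12 to 14 over control, 0 members were called under every setting run. Of all tested genes at most 16 and 2 were called in any setting, so the 0 is no result about the members. The settings include the rank-sum test, whose smallest p on 3 against 7 libraries, 0.0167, was too large to pass the adjustment. For lens 1 to 4 over control 1 member was called. No filter and the exact rank-sum test gave 0 members, beside 1323 of 18617 and 0 of 11005 genes. Library weights and the joint fit gave 3 members, beside 2097 and 1756 of all 11005 genes. Median-of-ratios scaling and the covariate for W-linked reads gave 4, beside 1487 and 1521 genes. Quantile scaling gave 5, beside 1523 genes. Leaving out 1 library gave 0 to 3, beside 724 to 1636 genes. ATP5A1Z turned to 0.22 with the covariate for W-linked reads. For lens 1 to 4 over lens 12 to 14 also 1 member was called. No filter, the exact rank-sum test and the title letter as a covariate gave 0, beside 261, 0 and 278 genes. Median-of-ratios scaling, quantile scaling and the covariate for W-linked reads gave 2, beside 453, 438 and 1448 genes. Library weights gave 6, beside 1239 genes. The rank-sum test cannot go below 0.0571 on 4 against 3 libraries, so its 0 there says nothing of stability. Leaving out 1 library gave 0 to 3, and 9 to 807 of all genes. For W-linked reads, leaving out 1 library gave 6 to 7 members, beside 447 to 566 of all genes. For NDUFB6 the adjusted p in lens 1 to 4 over control was 0.0174 to 0.111 over 21 alternatives, 11 of them under the threshold. For UQCR10 between the lens sets it was 0.0248 to 0.248 over 17, with 7 under it. These 17 include the rank-sum test, which could not pass the threshold there. The cause of these changes was not tested. No paired analysis was possible because the lens and control titles share no numbers.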
